A study of Mus musculus with 45 samples.

Results

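The arrays described here are those of embryoid bodies (EBs) grown for 16 days from the KD-labelled mouse embryonic stem cell (ESC) line, set against undifferentiated ESCs of the same line. They were chosen by line and day from the sample titles, and they make up 6 of the 45 arrays in the series, 3 in each group. The series followed 3 lines of strain 129 and male sex: the KD line, labelled as silenced for Strip2, cells with a scrambled control construct (SCR), and wild-type cells (WT). EBs are floating aggregates in which stem cells differentiate into many cell types. They were made by hanging drop and sampled at 4, 8, 12 and 16 days. Total RNA was hybridised to an Affymetrix mouse array that reads the 3′ ends of transcripts, and the values are the deposited log2 signals of 18193 genes.

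KD day 16 EBs and KD ESCs share their genotype label, strain and sex and differ in stage, 16 days as EBs made by hanging drop against undifferentiated culture. Any other difference in culture between ESCs and EBs goes with this 16-day difference. The same 16-day difference in WT and in SCR, with 3 arrays for each line and stage, served as the yardstick, and the changes in the 3 lines share no arrays. The labels do not name the silencing construct or say how many clones the KD line holds. Nor do they say whether the 3 arrays of a group came from separate cultures. In the main fit p-values measure the spread between arrays within groups, pooled over all stages of the 3 lines, and that spread may be technical. An aggregate holds several cell types, and fewer cells of a type and less RNA per cell cannot be told apart.

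Strip2 itself, a subunit of the STRIPAK complexes of striatins, kinases and the phosphatase PP2A, read 3.01, 3.41 and 3.43 in KD day 16 EBs, against 2.66, 2.77 and 2.72 in KD ESCs, on the log2 scale. The groups did not overlap, and the gene rose by 0.57 (SE 0.19, adjusted p = 0.018 in limma). That call was lost without array 2 or array 3 of day 16 or without ESC array 1 (adjusted p = 0.071, 0.081 and 0.055). KD ESCs averaged 2.72 ± 0.06, WT ESCs 2.70 ± 0.27 and SCR ESCs 2.85 ± 0.02 (SD, n = 3 each). The probe set therefore showed no lower Strip2 signal in KD ESCs than in WT ESCs, all of them near the dim end of the array, and the line is called KD-labelled below. The values of the 6 arrays ran from 1.84 to 14.21, array medians lay between 5.04 and 5.09, and arrays correlated at 0.9888 to 0.9953 within a group and at 0.9659 to 0.9741 between groups.

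Primitive endoderm is the extraembryonic lineage that covers the outside of EBs and, in the mouse embryo, forms the endoderm of the yolk sac. Its parietal branch secretes a thick basement membrane of laminin and type IV collagen. Its visceral branch takes up nutrients through the endocytic receptors cubilin and megalin and secretes plasma proteins such as transthyretin, alpha-fetoprotein and apolipoproteins, much as the liver does later. Transcription factors of the GATA, SOX and FOXA families and Hnf4a act in this lineage, and its anterior region secretes inhibitors of Nodal and Wnt signalling.

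By day 16 most visceral uptake and basement membrane genes of endoderm had risen in the KD-labelled line, while pluripotency genes stayed close to their ESC levels. The endoderm response was partial: 10 of 20 endoderm transcription factors and 17 of 28 plasma protein genes were called in neither direction. In KD day 16 EBs 3467 of the 18193 genes were called higher than in KD ESCs and 3472 lower (19.1% and 19.1%, adjusted p under 0.05 in limma). Of these, 1095 were at least 2-fold higher and 447 at least 2-fold lower (6.02% and 2.46% of all genes). WT had 2682 genes at least 2-fold higher and 1957 lower (14.7% and 10.8%), and SCR had 2807 and 2003 (15.4% and 11%). The median change over all genes was -0.05 in the KD-labelled line, -0.15 in WT and -0.19 in SCR.

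The 4 defining visceral endoderm markers, Cubn, Amn, Ttr and Afp, all rose, and their mean on an array was 8.94 to 9.65 in KD day 16 EBs, against 4.98 to 5.19 in KD ESCs. WT day 16 EBs had 8.98 to 9.43 and SCR day 16 EBs 9.20 to 9.44, so that the KD arrays overlapped those of both controls in this mean. Single markers differed from the controls in opposite directions. Amn averaged 7.86 in KD day 16 EBs, 4.88 in WT day 16 EBs and 4.87 in SCR day 16 EBs, while Afp averaged 7.70, 12.08 and 12.18. The 4 defining pluripotency markers, Pou5f1, Nanog, Sox2 and Zfp42, had a mean of 11.54 to 11.61 in KD day 16 EBs, against 11.79 to 11.84 in KD ESCs, while WT day 16 EBs had 7 to 7.84 and SCR day 16 EBs 5.34 to 6.81. Of the 4 parietal markers, Sparc, Lama1 and Plat rose and Thbd stayed below the array medians.

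The 12 largest rises between non-overlapping groups were Ttr, Clic6, Ctsh, Slc39a8, Pkdcc, Cyp26a1, Srgn, Irs4, Amot, Cubn, Pga5 and B4galnt2, between 8.27 and 4.20 on the log2 scale. Ttr (transthyretin, a carrier of thyroid hormone and of retinol-binding protein) read 11.69, 11.98 and 11.56 in KD day 16 EBs, against 3.62, 3.28 and 3.53 in KD ESCs, a 308-fold rise (log2 8.27, SE 0.39, adjusted p = 8.9e-18). Cyp26a1, which degrades retinoic acid, read 10.33, 10.06 and 10.18 in KD day 16 EBs, against 5.27, 4.85 and 5.32 in KD ESCs, a 33-fold rise. All 3 day 16 arrays lay above all 3 ESC arrays for each of the 12, as the rule that named them required, while 47.7% of all genes had non-overlapping groups in some direction. Slc39a8, a metal ion transporter, was 68.4-fold higher and Pkdcc, a secreted protein kinase, 38.3-fold higher. Both had started lower: Slc39a8 averaged 3.38 in KD ESCs, 5.46 in WT ESCs and 8.32 in SCR ESCs. Irs4 (an insulin receptor substrate) rose 29.4-fold, Amot (angiomotin, a regulator of Hippo signalling) 26.7-fold, Pga5 (a pepsinogen) 21.6-fold and B4galnt2 (a glycosyltransferase) 18.4-fold. These values depend on the probe set read: with the mean of a gene's probe sets the log2 change was 3.79 for Slc39a8 and for Pkdcc, 2.52 for Irs4, 1.77 for Amot, 1.49 for B4galnt2, 7.13 for Ttr and 4.47 for Clic6, all still called.

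Visceral endoderm genes of uptake and signalling mostly rose. Of 20 measured members, 15 rose and 1 fell by day 16, against 19.1% and 19.1% of all genes. Their median change was 1.58, beside -0.05 over all genes, and the same members had a median of 0.98 in WT and 0.84 in SCR. The members of this and every other list were chosen with earlier results of these data known. Counts set beside the share of all genes therefore describe the lists and do not test them.

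The endocytic receptors and their partners rose together. Cubn, which encodes cubilin, read 10, 10.06 and 9.19 in KD day 16 EBs, against 5.20, 4.86 and 5.39 in KD ESCs (log2 change 4.60, SE 0.32, adjusted p = 7.3e-14). Amn, the membrane anchor that cubilin needs to reach the cell surface, read 8.01, 7.66 and 7.92 in KD day 16 EBs, against 6.61, 6.73 and 6.63 in KD ESCs (1.21, SE 0.19, adjusted p = 3.1e-06). Both genes were higher on every day 16 array than on every ESC array. Lrp2, which encodes megalin, read 9.19, 8.68 and 8.25 in KD day 16 EBs, against 7.10, 6.50 and 6.67 in KD ESCs (1.95, SE 0.28, adjusted p = 6.8e-07). Dab2, the adaptor that links these receptors to the endocytic coat, was 13.8-fold higher (adjusted p = 1.2e-14), and Lrpap1, a chaperone of the LDL receptor family, was 1.93-fold higher. These 3 genes did not overlap between the groups either.

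The 250 bases before the annotated start of Cubn and Amn, whose products form a receptor pair, are shown to set their promoters side by side. They are from RefSeq on GRCm38.p6, Cubn at chr2:13491877-13492126 on the minus strand and Amn at chr12:111270846-111271095 on the plus strand, written 5′ to 3′ with motif matches in capitals.
Cubn: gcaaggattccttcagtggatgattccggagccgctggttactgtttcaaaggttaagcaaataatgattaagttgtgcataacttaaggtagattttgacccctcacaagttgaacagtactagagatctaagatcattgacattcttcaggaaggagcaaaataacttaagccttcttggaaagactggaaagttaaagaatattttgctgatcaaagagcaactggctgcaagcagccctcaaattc
Amn: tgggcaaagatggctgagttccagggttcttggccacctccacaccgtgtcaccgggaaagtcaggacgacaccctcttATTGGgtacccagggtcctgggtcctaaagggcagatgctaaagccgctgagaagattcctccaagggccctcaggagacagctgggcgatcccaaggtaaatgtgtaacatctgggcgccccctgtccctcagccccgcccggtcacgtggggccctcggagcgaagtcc
The motifs searched on both strands were GATAA (for GATA factors), TGTTTNC (for FOXA factors), CAAAGTCCA (for HNF4), TATAAA (the TATA box) and CCAAT. Those letters occurred in 22.6%, 17.8%, 0.384%, 12.4% and 33.8% of the 32851 RefSeq windows of the same length. The Cubn window held none of them, and the Amn window held CCAAT on the opposite strand.

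Lysosomal and surface enzymes of the uptake and signalling list rose as well, as did its member Clic6, which is not an enzyme of these kinds. Ctsh, the lysosomal protease cathepsin H, read 10.58, 10.25 and 10.39 in KD day 16 EBs, against 4.22, 3.88 and 4.32 in KD ESCs, a 77-fold rise (adjusted p = 4.6e-17). Clic6, of the chloride intracellular channel family, read 9.92, 9.76 and 9.58 in KD day 16 EBs, against 2.91, 3.69 and 3.33 in KD ESCs, an 87-fold rise (adjusted p = 3.2e-17). The day 16 arrays of both genes were tightly grouped and far above the ESC arrays. Tmprss2, a surface serine protease, rose 15.9-fold, Lgmn, the protease legumain, 4.8-fold, Dpp4, a surface peptidase, 4.51-fold, and Ctsz, another lysosomal cathepsin, 1.76-fold.

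Among the signalling members, Bmp2, a BMP ligand, rose 13.7-fold and Cited1, a transcriptional coregulator, 12.6-fold. Ihh, a hedgehog ligand, rose by 0.54 (adjusted p = 0.036) and Fgfr4, a receptor for fibroblast growth factors, by 0.48 (adjusted p = 0.038). Ihh missed the threshold without day 16 array 1, 2 or 3 or without ESC array 2 (adjusted p = 0.071, 0.1, 0.051 and 0.24). Fgfr4 missed it without day 16 array 2 or 3 or ESC array 1 or 2 (adjusted p = 0.064, 0.17, 0.1 and 0.2), with only the compared arrays (0.051) and with the mean of its probe sets (0.33). Folr1, a folate receptor, was the member that fell, by 1.05 (adjusted p = 0.00046). Slc39a4, Stra6, Fxyd2 and Tmem37, of which the first is a zinc transporter and Stra6 a receptor for retinol-binding protein, did not pass, with changes of -0.50 to 0.23.

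**Figure D1:**
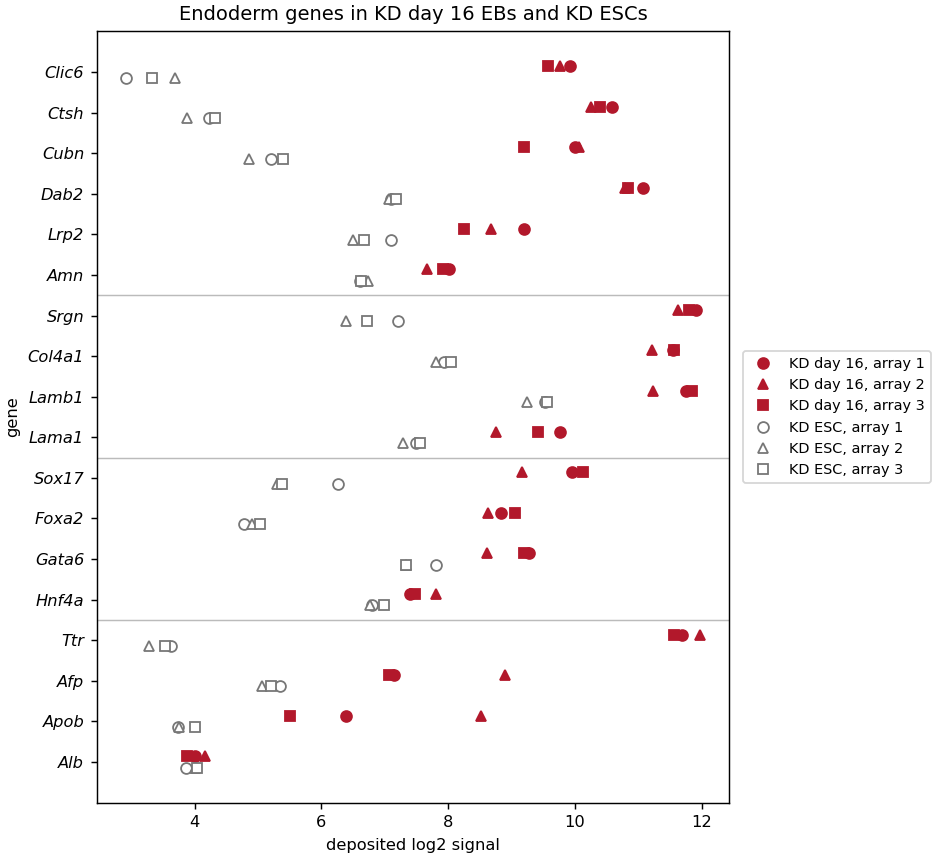
Deposited log2 signal (x axis) of 18 endoderm genes (rows) on the 3 KD day 16 arrays (filled red) and the 3 KD ESC arrays (open grey), with a marker shape for each array number. Rows run from genes of the uptake and signalling list to basement membrane genes, transcription factors and plasma proteins. Alb stays near 4 on all 6 arrays, and Afp and Apob are highest on day 16 array 2.

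Genes of parietal endoderm and its basement membrane rose in 13 of 18 cases and fell in 1, against 19.1% of all genes in each direction. Their median change was 2.07, against 1.68 in WT and 2.05 in SCR. Srgn, the proteoglycan serglycin, read 11.91, 11.62 and 11.80 in KD day 16 EBs, against 7.20, 6.38 and 6.72 in KD ESCs, a 32.2-fold rise. Col4a1, a type IV collagen chain, read 11.54, 11.21 and 11.56 in KD day 16 EBs, against 7.93, 7.80 and 8.05 in KD ESCs (11.4-fold, adjusted p = 3.2e-17), and its partner chain Col4a2 rose 11.8-fold. In each of these genes the groups were well apart.

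The calls of the laminin chains were uneven. Lamb1 rose 4.48-fold and Lama1 3.66-fold, while Lamc1 read 8.78, 8.29 and 8.84 in KD day 16 EBs, against 8.39, 8.31 and 8.88 in KD ESCs (0.11, adjusted p = 0.74), with overlapping arrays. Nid1 and Nid2, the nidogens that join laminin to collagen, changed by -0.41 and 0.13 without passing the test (adjusted p = 0.077 and 0.57). Without day 16 array 3 Nid1 passed as lower (adjusted p = 0.019), and the fall of Hspg2 (perlecan) by 0.33 lost its call (adjusted p = 0.058).

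The collagen-processing members rose, Serpinh1, a collagen chaperone, 8.21-fold, and the prolyl hydroxylases P4ha1 and P4ha2 3.93-fold and 3.73-fold. Among receptors and secreted proteins, Pth1r, the receptor for parathyroid hormone-related protein, rose 9.45-fold and Pdgfra, a receptor for platelet-derived growth factor, 6.63-fold. Plat, tissue plasminogen activator, rose 7.69-fold, Fst, the activin antagonist follistatin, 6.19-fold, and Sparc, a matrix glycoprotein, 3.27-fold. Thbd (thrombomodulin) read 4.59, 4.39 and 4.68 in KD day 16 EBs, against 4.78, 4.79 and 4.86 in KD ESCs and did not pass the test (adjusted p = 0.1).

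Of 20 endoderm transcription factors, 10 rose and 0 fell in limma (1 lower at an unadjusted p under 0.05), where 19.1% of all genes rose and 19.1% fell. Their median change was 0.41, against 1.18 in WT and 1.74 in SCR. Sox17 read 9.96, 9.16 and 10.13 in KD day 16 EBs, against 6.26, 5.30 and 5.38 in KD ESCs, a 17.2-fold rise (adjusted p = 1.1e-13). Foxa2 read 8.84, 8.63 and 9.06 in KD day 16 EBs, against 4.77, 4.90 and 5.03 in KD ESCs, a 15.4-fold rise (adjusted p = 8.9e-18). Neither gene's groups overlapped. Their KD changes were not shown to differ from WT (differences -0.88 and 0.60, adjusted p = 0.078 and 0.062) or from SCR (-0.52 and -0.05, adjusted p = 0.3 and 0.9). The comparisons with WT lay near the threshold. Foxa2 passed it as the larger KD change with median centring, with dim genes left out and without day 16 array 2, WT day 16 array 3 or WT ESC array 1 (adjusted p = 0.042, 0.049, 0.039, 0.045 and 0.024). Sox17 passed it as the smaller KD change without day 16 array 3, ESC array 2, WT day 16 array 2 or WT ESC array 2 (0.042, 0.048, 0.042 and 0.048), while with the mean of its probe sets its differences were 0.01 from WT and 0.47 from SCR.

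Other factors of the lineage rose less. Foxa1 rose 5.58-fold, Sox7 3.39-fold, Foxa3 3.14-fold, Gata6 2.89-fold, Gata4 2.74-fold, Prox1 2.7-fold, Hhex 1.93-fold and Hnf4a 1.64-fold. Gata6, which drives primitive endoderm fate in the mouse, read 9.28, 8.61 and 9.19 in KD day 16 EBs, against 7.81, 7.34 and 7.34 in KD ESCs. Its start was high, with 7.50 ± 0.27 in KD ESCs, against 4.94 ± 0.15 in WT ESCs and 5.16 ± 0.56 in SCR ESCs (SD, n = 3 each). Hnf4a, a nuclear receptor that acts on genes of visceral endoderm and liver, read 7.40, 7.81 and 7.47 in KD day 16 EBs, against 6.79, 6.76 and 6.99 in KD ESCs, a small step between groups that did not overlap. The other factors of the list (Cebpa, Onecut1, Nr1h4, Nr1i3, Creb3l3, Hnf4g, Isx, Pdx1, Nkx2-1 and Gata5), several of them acting in liver or gut, did not pass, with changes of -0.30 to 0.10. Without ESC array 2 Nkx2-1 passed as lower (adjusted p = 0.024). The KD change lay below both control changes for 7 of the 20 factors and above both for 0 in limma, also at an unadjusted p under 0.05, while 16.9% and 19.2% of all genes did so.

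Anterior visceral endoderm genes mostly rose too. Of 8 members, 6 rose and 0 fell in limma (1 lower at an unadjusted p under 0.05), where 19.1% of all genes rose and 19.1% fell. Their median change was 1.08, against -0.18 in WT and -0.31 in SCR. Lhx1, a LIM homeobox factor, read 7.44, 7.31 and 7.64 in KD day 16 EBs, against 3.55, 3.68 and 3.98 in KD ESCs, a 13.2-fold rise. Otx2, a homeobox factor also found in the primed epiblast, read 10.64, 10.67 and 10.90 in KD day 16 EBs, against 7.99, 7.83 and 8.26 in KD ESCs, a 6.54-fold rise. Neither overlapped. Dkk1, a secreted Wnt antagonist, rose 5.92-fold, Gsc, a homeobox factor, 2.76-fold, and Cer1, which binds Nodal and BMPs, 1.62-fold. Lefty1, a Nodal antagonist, rose by 0.60 (adjusted p = 0.016), a call lost without ESC array 1 or 2 (adjusted p = 0.053 and 0.076).

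The KD change lay above both control changes for these 6 genes, as it did for 19.2% of all genes. Fzd5, a Wnt receptor, and Sfrp5, a Wnt antagonist, changed by -0.59 and 0.16 without passing the test (adjusted p = 0.059 and 0.3). Fzd5 passed as lower with only the compared arrays and with the mean of its probe sets (adjusted p = 0.0045 and 3.4e-06), with median centring (0.048) and with dim genes left out (0.041), and Sfrp5 as higher without day 16 array 3 (0.047). Lhx1 and Gsc also stand in the primitive streak list and Otx2 in that of the primed epiblast.

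Many of these genes have several probe sets, of which the brightest is given here. With the mean of a gene's probe sets, 35 of the named changes moved by over 1.5-fold, 33 of them toward 0, and the calls of Ldb3, Myh6 and Tbx20 in the cardiac list were lost among them (adjusted p = 0.084, 0.091 and 0.15). Among endoderm genes other than Ttr and Clic6, the log2 change of Lrp2 was then 1.05, of Tmprss2 1.97 and of Dpp4 1.44. That of Plat was 1.59, of Pdgfra 1.52, of Sox17 3.51, of Sox7 0.92, of Gata4 0.86, of Prox1 0.52 and of Lhx1 2.96, all still called higher. Cer1 (1.29) and Mttp (2.89) moved away from 0.

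The largest gap to the controls among the endoderm lists was that of the plasma proteins of yolk sac and liver. Of 28 measured members 10 rose and 1 fell, beside 19.1% of all genes in each direction, and the median change was 0.33, against 4.85 in WT and 5.71 in SCR. The KD change lay below both control changes for 21 of the 28 members and above both for 0 in limma, also at an unadjusted p under 0.05, while 16.9% and 19.2% of all genes did so. Beside these counts, the 4 defining hepatocyte markers, Alb, Fgb, Serpina6 and Ahsg, were all below the array medians at KD day 16. Their mean on an array was 3.96 to 4.2 in KD day 16 EBs, against 3.90 to 4.02 in KD ESCs, while WT day 16 EBs had 9.32 to 10.22 and SCR day 16 EBs 10.17 to 11.71.

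Carriers of retinol and lipid led the members that rose. After Ttr came Rbp4, retinol-binding protein, which read 8.53, 8.78 and 8.78 in KD day 16 EBs, against 5.33, 4.87 and 5.63 in KD ESCs (10.7-fold, adjusted p = 2.4e-13). Apob, the backbone of secreted lipoproteins, read 6.38, 8.51 and 5.50 in KD day 16 EBs, against 3.74, 3.75 and 4 in KD ESCs (7.82-fold, adjusted p = 0.00022). Its day 16 arrays were far apart, although all were above the ESC arrays, and the log2 change was 2.11 without array 2 and 3.61 without array 3, in place of 2.97. It was 1.54 with the mean of its probe sets (adjusted p = 0.0087). Mttp, which loads lipid onto Apob, rose 4.27-fold, Apoa2 2.7-fold and Apoc1 2.01-fold. Ttr averaged 11.74 ± 0.22 in KD day 16 EBs, 13.15 ± 0.30 in WT day 16 EBs and 13.64 ± 0.28 in SCR day 16 EBs (SD, n = 3 each), and its KD change was smaller than both control changes (differences -1.46 and -2.13, adjusted p = 0.03 and 0.0017). The call against WT was lost without day 16 array 1 or 3 or ESC array 1 or 3 of the KD-labelled line (0.051, 0.061, 0.059 and 0.05), and without array 2 or 3 of WT day 16 or of WT ESCs (0.066, 0.055, 0.052 and 0.077).

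Afp and Alb, neighbouring genes of the albumin family on chromosome 5, parted. Afp, a main plasma protein of the yolk sac, read 7.15, 8.89 and 7.07 in KD day 16 EBs, against 5.34, 5.06 and 5.21 in KD ESCs (5.66-fold, adjusted p = 5e-06), and the log2 change without array 2 was 1.91 in place of 2.50. Alb, serum albumin, read 4.01, 4.17 and 3.88 in KD day 16 EBs, against 3.86, 4 and 4.03 in KD ESCs (0.06, SE 0.23, adjusted p = 0.88), while it averaged 12.77 ± 0.29 in WT day 16 EBs and 13.48 ± 0.52 in SCR day 16 EBs (SD, n = 3 each). Afp was thus higher on every day 16 array than on every ESC array, and the Alb arrays of both groups overlapped.

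The 250 bases before the start of each are shown because these neighbours differed in their response. Both are from RefSeq on GRCm38.p6, plus strand, Afp at chr5:90490464-90490713 and Alb at chr5:90460620-90460869, with matches to the same 5 motifs in capitals.
Afp: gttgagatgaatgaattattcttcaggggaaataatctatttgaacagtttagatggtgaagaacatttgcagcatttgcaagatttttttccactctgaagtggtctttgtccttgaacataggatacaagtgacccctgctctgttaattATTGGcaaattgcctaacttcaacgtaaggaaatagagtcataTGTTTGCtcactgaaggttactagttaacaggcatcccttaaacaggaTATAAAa
Alb: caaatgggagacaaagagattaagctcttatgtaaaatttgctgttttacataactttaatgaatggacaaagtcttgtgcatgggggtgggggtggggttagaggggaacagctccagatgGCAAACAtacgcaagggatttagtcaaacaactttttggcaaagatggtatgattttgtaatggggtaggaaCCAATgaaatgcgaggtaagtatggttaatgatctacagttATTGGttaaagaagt
The Afp window held the FOXA, TATA and CCAAT motifs, and the Alb window held the FOXA motif and, on each strand, the CCAAT motif. The TATA match of Afp began 7 bases before the annotated start, at the edge of the window. Bases past the start were not searched, so a match there in Alb would not have been seen. No match overlapped another. Over the list, 13 of the 24 members with a RefSeq window held TGTTTNC (54.2%), against 17.8% of all windows, and 10 held GATAA (41.7%), against 22.6%. TATAAA occurred in 5 of the 24 (20.8%, against 12.4%), CCAAT in 7 (29.2%, against 33.8%) and CAAAGTCCA in 0 (against 0.384%). TGTTTNC occurred in 0 of 14 windows of the uptake and signalling list and in 0 of 12 of the parietal list. GATAA occurred in 4 of those 14 (28.6%) and in 0 of those 12. The motifs were chosen after these windows had been read, and a match describes letters only.

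Coagulation and acute-phase genes mostly stayed near their ESC levels. Fgb and Fgg, fibrinogen chains, rose by 0.86 each (adjusted p = 0.036 and 0.03), and both calls were lost without day 16 array 2 (adjusted p = 0.23 and 0.11). The call of Fgb was also lost without ESC array 1, 2 or 3 (adjusted p = 0.062, 0.054 and 0.11), and that of Fgg without ESC array 1 (0.12). F2, prothrombin, rose by 0.72 (adjusted p = 0.015), a call lost without day 16 array 2 (0.071). Fga, Hpx, Ambp, Plg, Vtn, Itih2, Serpina6, Serpinf2 and F10 did not pass, with changes of -0.16 to 0.25, where WT had 1.38 to 6.72. Apoa1, the main protein of high-density lipoprotein, read 5.06, 6.20 and 4.76 in KD day 16 EBs, against 4.82, 5.05 and 4.60 in KD ESCs, with overlapping groups (0.52, adjusted p = 0.29). Apoa4, Apoc2, Apom, Apoe, Apoh and Ahsg did not pass either (-0.50 to 0.62), although with only the compared arrays Apoa4 passed as higher and Ahsg as lower (adjusted p = 0.047 and 0.0035), and without day 16 array 2 Apoh passed as lower (0.048). Fetub, fetuin-B, was the member that fell, by 1.12.

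**Figure D2:**
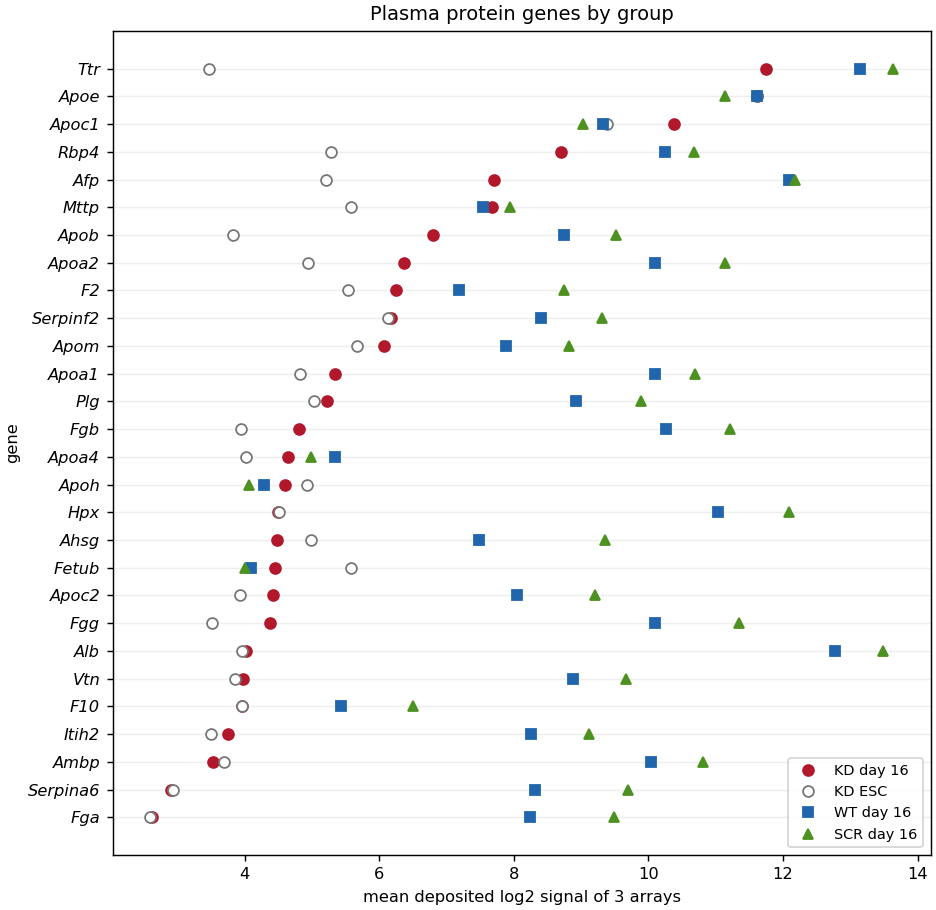
Mean deposited log2 signal of 3 arrays (x axis) for 28 plasma protein genes (rows, ordered by KD day 16 level) in KD day 16 EBs (red), KD ESCs (open grey), WT day 16 EBs (blue squares) and SCR day 16 EBs (green triangles). For many members the KD day 16 and KD ESC points nearly coincide while the control points lie far to their right; Ttr has the widest gap between KD day 16 and KD ESCs.

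Within the KD day 16 group the arrays differed in these genes, and array 2 lay furthest from the others. Array 2 was the lowest of the 3 arrays in 17 of 18 parietal and basement membrane genes and the highest in 20 of 28 plasma protein genes. Its median distance from the mean of the other arrays was -0.58 over the parietal list and 0.39 over the plasma list. Array 3 went the other way, the highest in 11 of the 18 and the lowest in 19 of the 28, with median distances of 0.32 and -0.3. The mean level of the parietal list was 9.35, 8.79 and 9.37 on the KD day 16 arrays, against 7.24, 7.07 and 7.27 on the KD ESC arrays. That of the plasma list was 5.64, 6.11 and 5.51 on the KD day 16 arrays, against 4.86, 4.82 and 4.94 on the KD ESC arrays. Leaving out any of the 6 arrays gave 13 parietal genes called higher and 7 to 10 plasma genes called higher.

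**Figure D3:**
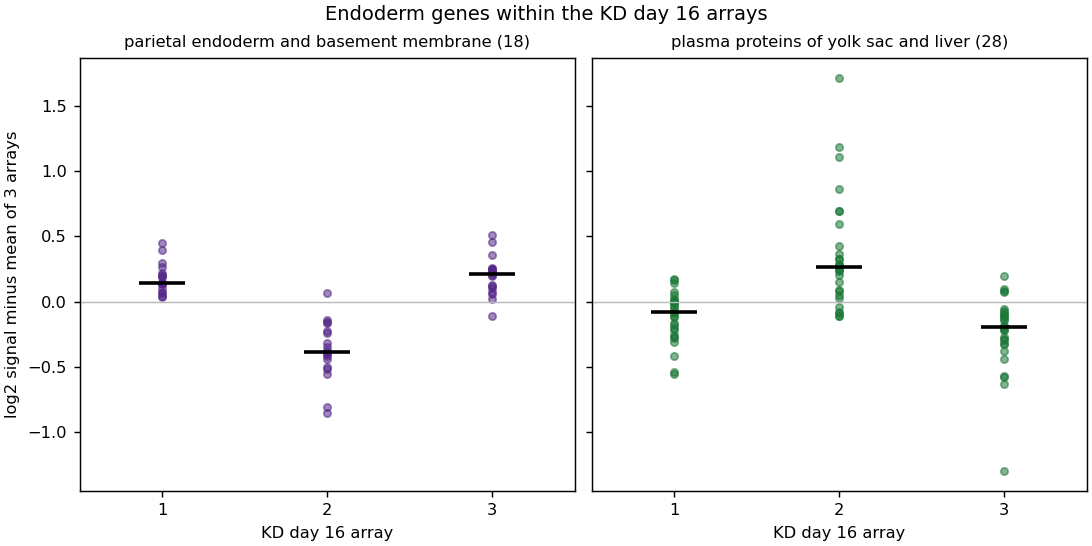
Log2 signal of each gene on KD day 16 arrays 1, 2 and 3 (x axis) minus its mean over the 3 (y axis), for 18 parietal and basement membrane genes (left) and 28 plasma protein genes (right); points are genes and black dashes are medians. Array 2 is low in the left panel and high in the right, and array 3 the reverse.

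As a description of stage means without a test, most uptake and basement membrane genes of the KD-labelled line were higher at day 12 than at day 16. Of the 20 uptake and signalling genes, 17 had their highest stage mean at day 12 and 0 at day 16, and of the 18 parietal genes 14 and 1. Of 28 plasma proteins, 5 were highest at day 12 and 15 at day 16. Cubn averaged 5.15 in KD ESCs, 7.79 at 4 days, 10.63 at 8 days, 10.89 at 12 days and 9.75 at 16 days. Ttr averaged 3.48, 8.21, 9.40, 11.74 and 11.74 at the same stages. Sox17 averaged 5.65, 6.30, 9.89, 10.41 and 9.75, so that most of its step lay between days 4 and 8.

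The mean level of the uptake and signalling list was 6.33 in KD ESCs, 7.10, 8.39 and 8.93 at 4, 8 and 12 days, and 8.39 ± 0.10 at 16 days, where WT had 7.14 ± 0.23 and SCR 7.01 ± 0.22 (SD, n = 3 each). For the anterior visceral endoderm list, KD EBs had 6.48 at 4 days, where both controls had their highest mean, 7.30 in WT and 7.26 in SCR. At 16 days its mean was 7.10 ± 0.05 in KD EBs, 5.58 ± 0.18 in WT EBs and 5.34 ± 0.26 in SCR EBs. The mean of the pluripotency list was 10.58, 9.94, 10.24, 10.09 and 10.20 from KD ESCs to KD day 16, against 10.76, 6.77, 5.84, 6.04 and 6.70 in WT.

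**Figure D4:**
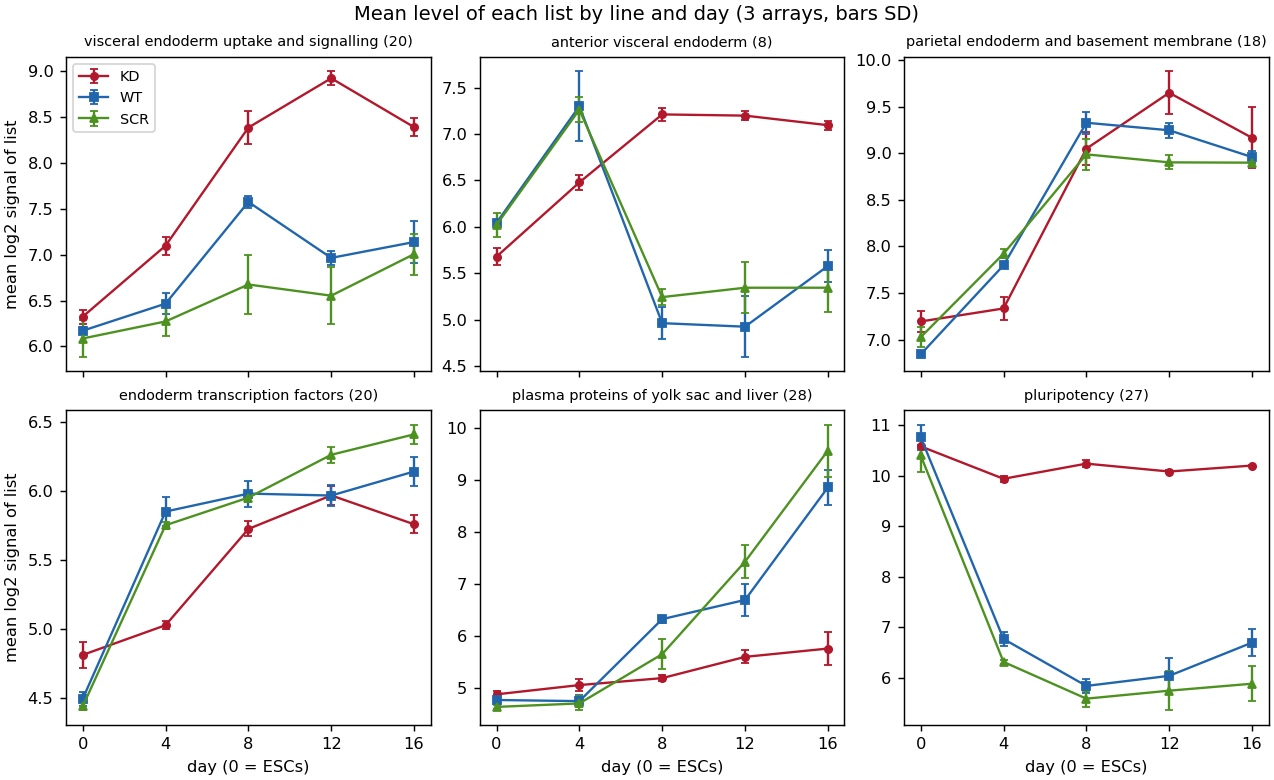
Mean deposited log2 signal over the members of 6 gene lists (y axes, different ranges) by day (x axis, 0 = ESCs) in the KD-labelled line (red), WT (blue) and SCR (green); points are means of 3 arrays and bars are SDs. In the KD-labelled line the uptake list is highest at day 12 and ends above both controls, the plasma list ends below both, and the pluripotency list stays near 10.

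Tested as a difference of changes, the KD change exceeded that of WT for 4321 genes and fell short of it for 3919 (23.8% and 21.5%), by at least 2-fold for 1717 and 2091 (9.44% and 11.5%). Against SCR the counts were 4806 and 3871 (26.4% and 21.3%), and 1687 and 2121 by at least 2-fold (9.27% and 11.7%). Above both controls were 3498 genes and below both 3082 (19.2% and 16.9%). Both tests share the KD arrays. Which direction held more genes depended on the scaling: with cyclic loess 3642 KD changes were above and 4437 below WT, and 3896 above and 4355 below SCR, while median centring gave 4867 and 3630 against WT and 5826 and 3461 against SCR.

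The visceral endoderm receptors were on the higher side of these tests. The KD change exceeded both control changes for 6 of 20 uptake and signalling genes, Cubn, Amn, Lrp2, Dpp4, Ctsh and Clic6, and fell short of both for 0 in limma, also at an unadjusted p under 0.05. Among all genes 19.2% exceeded both and 16.9% fell short of both, so that the 6 were not far above that share. Cubn changed by 4.60 in the KD-labelled line, 1.90 in WT and 2.08 in SCR (differences 2.70 and 2.52, adjusted p = 5.7e-06 and 1.7e-05). For Amn and Lrp2 the direction itself differed. Amn changed by 1.21 in the KD-labelled line, -1.18 in WT and -1.04 in SCR, and Lrp2 by 1.95, -1.20 and -3.27. Dab2 and Bmp2 rose in the KD-labelled line without a difference from WT that passed (0.52 and 0.55, adjusted p = 0.23 and 0.16). Against SCR the differences were 1.17 for Dab2 and 0.17 for Bmp2 (adjusted p = 0.0053 and 0.69).

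The parietal list was split, where 19.2% of all genes lay above both controls and 16.9% below both. Of its 18 genes, 5 had KD changes above both controls (Srgn, Lama1, Lamb1, Fst and Pth1r) and 6 below (Col4a1, Col4a2, Nid1, Pdgfra, Plat and Serpinh1). The 5 were 3 with only the compared arrays, with the mean of probe sets or without day 16 array 1 or 3. Srgn changed by 5.01 in the KD-labelled line, 0.82 in WT and 0.75 in SCR, and Lama1 by 1.87, -0.55 and -1.40. Col4a1 changed by 3.51 in the KD-labelled line, 4.84 in WT and 4.45 in SCR. Its level at day 16 was 11.44 ± 0.20 in KD EBs, 11.13 ± 0.23 in WT EBs and 11.59 ± 0.18 in SCR EBs (SD, n = 3 each), and its ESC level was 7.93 in the KD-labelled line, 6.29 in WT and 7.14 in SCR.

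Across genes the KD change correlated with that of WT at r = 0.446 and with that of SCR at r = 0.439, while the WT and SCR changes correlated at r = 0.922 (18193 genes, which are not independent replicates). Of the 1095 genes at least 2-fold higher at KD day 16, 597 (54.5%) were also at least 2-fold higher in both controls, where they made up 26.6% of the 2243 genes so shared. Of the 447 genes at least 2-fold lower, 228 (51%) were lower in both controls, or 14.6% of their 1557. Opposite and at least 2-fold changes in both controls were found for 39 of the rises (3.56%) and 24 of the falls (5.37%).

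**Figure D5:**
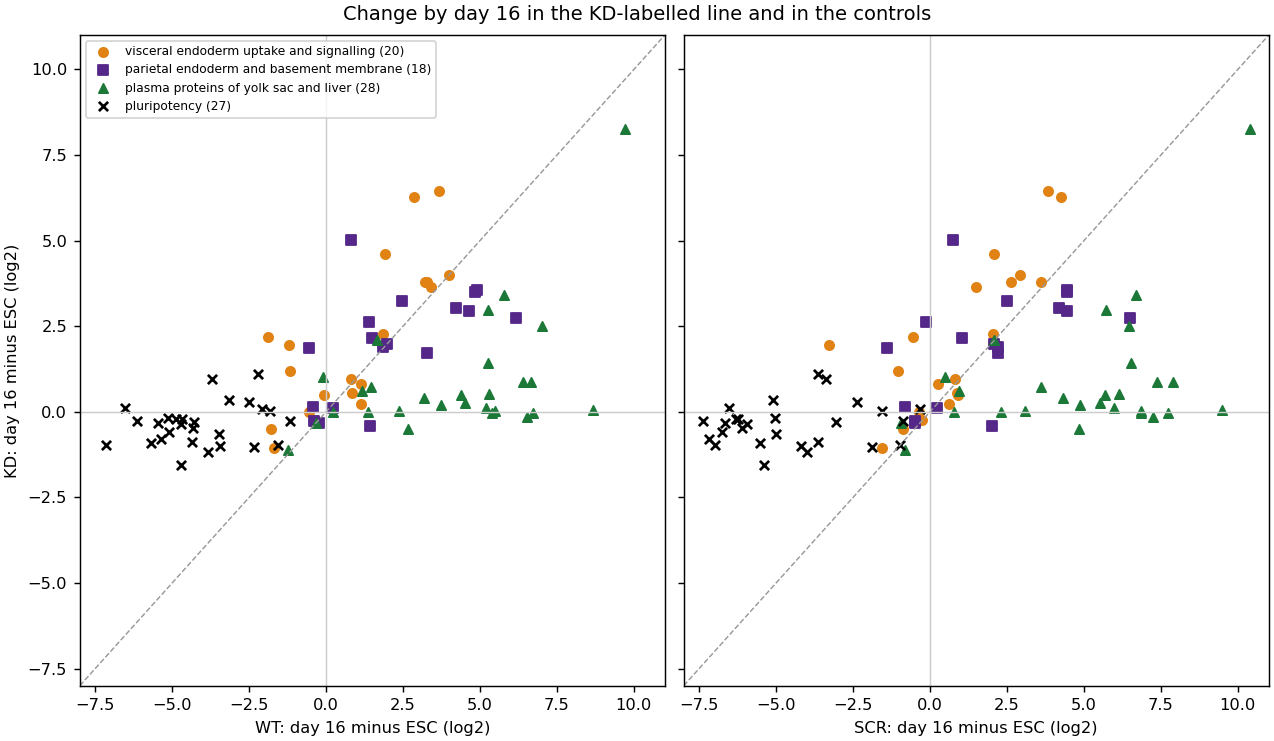
Log2 change from ESCs to day 16 in the KD-labelled line (y axes) against that in WT (left, x axis) and SCR (right, x axis) for the members of 4 lists; the dashed line marks equal change. Uptake genes lie mostly on or above the line, plasma proteins spread to the right near a KD change of 0, and pluripotency genes spread to the left near 0.

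Pluripotency genes changed little beside this. Of 27 members, 2 rose and 9 fell, beside 19.1% of all genes in each direction, with a median change of -0.33, against -4.31 in WT and -5.04 in SCR. The KD change lay above both control changes for 24 of the 27, against 19.2% of all genes. Pou5f1 (Oct4) read 11.36, 11.48 and 11.41 in KD day 16 EBs, against 11.92, 11.97 and 12.13 in KD ESCs, and did not pass in the fit to all arrays (-0.59, adjusted p = 0.22). Nanog and Zfp42 did not pass either (-0.36 and -0.33, adjusted p = 0.57 and 0.62). All 3 genes were lower on each day 16 array than on each ESC array, and in a fit to only the compared arrays they passed (adjusted p = 0.002, 0.025 and 0.025). Sox2 changed by 0.27 (adjusted p = 0.58). The largest falls were those of Gdf3 (1.55), a TGF-beta ligand, Zfp296 (1.18) and Klf4 (1.03), a factor of the naive state. The members that rose were Dppa3 (1.10), also of germ cells, and Prdm14 (0.95), which was named after its values were seen.

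Genes of the primed epiblast, the state that follows naive pluripotency, rose in 5 of 14 cases and fell in 1, against 19.1% of all genes in each direction. Fgf5, its classic marker, read 7.62, 7.47 and 7.57 in KD day 16 EBs, against 3.56, 3.13 and 3.58 in KD ESCs, a 17.5-fold rise (adjusted p = 1.1e-09). The groups were far apart, and the Fgf5 level was already 7.87 at 4 days, with 7.50 and 7.57 at 8 and 12 days. The log2 change of Fgf5 was 2.49 with the mean of its probe sets, in place of 4.13. Its change was 0.09 in WT and -2.97 in SCR. Car4, a carbonic anhydrase, rose 10-fold and Grhl2, an epithelial transcription factor, 3.95-fold (log2 1.98, or 0.68 with the mean of its probe sets). Of 19 streak and early mesoderm genes, 4 rose, Lhx1, Eomes, Fgf8 (3.24-fold) and Gsc, and 1 fell.

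The 12 largest falls were Gbx2, Ceacam20, Bmp4, Nefh, Khdc3, Tgm1, Socs3, Zfp423, Aard, Ak7, Ttn and Pramel6, between -3.70 and -2.62. Gbx2, a homeobox factor, read 4.23, 4.33 and 4.50 in KD day 16 EBs, against 8.13, 8.14 and 7.89 in KD ESCs (adjusted p = 1.1e-15). Bmp4, a BMP ligand, read 7.63, 7.77 and 7.78 in KD day 16 EBs, against 10.75, 10.89 and 10.65 in KD ESCs (adjusted p = 1.2e-11). Both read lower on every day 16 array than on every ESC array. Socs3, a feedback inhibitor of LIF and STAT3 signalling, read 7.79, 7.69 and 8.20 in KD day 16 EBs, against 10.70, 10.64 and 10.72 in KD ESCs, again without overlap. Gbx2 changed by -4.23 and Socs3 by -2.60 in WT, while Bmp4 fell further in the KD-labelled line than in WT or SCR (differences -1.79 and -2.03, adjusted p = 0.00011 and 2e-05). With the mean of probe sets the change of Ttn was -0.75 in place of -2.67 and that of Pramel6 -1.60 in place of -2.62.

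Neural genes fell in 7 of 22 cases and rose in 1, while 19.1% of all genes fell and 19.1% rose. Tubb3, neuronal tubulin, was 5.92-fold lower, Neurod1, a neurogenic factor, 5.98-fold lower and Stmn2, a neuronal stathmin, 4.32-fold lower in KD day 16 EBs. Beside the same background, 16 of 22 cell cycle genes fell and 2 rose, with a median change of -0.46, against -1.34 in WT and -1.51 in SCR. Ccne1, cyclin E1, was 3.78-fold lower and Aurka, a mitotic kinase, 2.62-fold lower. Of 15 p53 targets and inhibitors of cyclin-dependent kinases 7 rose and 1 fell, with Cdkn1b 3-fold and Cdkn1a 1.91-fold higher, again beside 19.1% in each direction. Of 8 DNA methylation enzymes and partners 4 fell and 0 rose in limma, also at an unadjusted p under 0.05, led by Dnmt3l at -1.31.

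Epithelial and gut genes rose in 11 of 21 cases and 0 fell in limma, also at an unadjusted p under 0.05, where 19.1% of all genes rose and 19.1% fell (median 0.63, against 1.73 in WT and 1.72 in SCR). Krt8 and Krt18, the keratins of simple epithelium, averaged 12.50 ± 0.22 and 12.26 ± 0.15 in KD day 16 EBs, against 9.43 ± 0.10 and 8.75 ± 0.12 in KD ESCs (SD, n = 3 each), and rose 8.4-fold and 11.4-fold. Cldn7, a tight-junction protein, rose 15.1-fold. Of 13 trophoblast genes 7 rose, led by Krt7 (7.75-fold), a keratin that the epithelial list holds too, and Eomes (5.45-fold), a T-box factor. The defining trophoblast markers Elf5 and Tpbpa stayed below the array medians with changes of -0.03 and 0.18.

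Genes of heart and vessels rose about as often as genes in general, of which 19.1% rose and 19.1% fell. Of 31 cardiac muscle genes 6 rose and 3 fell (median 0.14, against 1.68 in WT and 4.19 in SCR), and the defining markers Tnnt2, Myh6, Actc1 and Nppa were all below the array medians. Myh6, a cardiac myosin, fell by 1.84, a call lost with the mean of its probe sets (adjusted p = 0.091), as was the rise of Tbx20, a T-box factor, by 1.31 (0.15). The 4 red-cell markers were also below the array medians. Of 16 blood genes 2 rose, Runx1 (4.02-fold), a factor of blood stem cells, and Csf1r (2.77-fold), a macrophage receptor, and 3 fell, 2 of them at least 2-fold. Of the 3 macrophage markers, Ptprc, Csf1r and Cd68, 1 rose and 1 fell, and Ptprc was below the array medians. The mean of these 3 on an array was 5.54 to 5.62 in KD day 16 EBs, against 5.33 to 5.45 in KD ESCs. Read as the mean of probe sets, the log2 change of Runx1 was 0.55 in place of 2.01 and that of Csf1r 0.59 in place of 1.47, both still called. Of 16 endothelial genes 3 rose and 3 fell, with Flt1, a VEGF receptor, 7.09-fold higher and Tek, an angiopoietin receptor, 3.1-fold lower.

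Mesenchymal genes rose in 7 of 21 cases and fell in 1, against 19.1% of all genes in each direction, with a median change of 0.05, against 6.23 in WT and 5.79 in SCR. Col3a1, type III collagen, read 6.25, 5.88 and 7.92 in KD day 16 EBs, against 3.48, 3.75 and 4.38 in KD ESCs (7.03-fold, adjusted p = 4.9e-10). Cdh11, a mesenchymal cadherin, read 4.93, 4.72 and 6.43 in KD day 16 EBs, against 2.89, 2.72 and 2.87 in KD ESCs (5.79-fold). Day 16 array 3 was the highest for both, as it was for 14 of the 21 genes, and without it the log2 change of Col3a1 was 2.19 in place of 2.81. It was 1.86 with the mean of its probe sets, and that of Cdh11 1.29 in place of 2.53. Of the 6 fibroblast markers, Col3a1 and Postn rose, and Col1a1, Dcn and Lum stayed below the array medians. The mean of the 6 on an array was 5.04 to 5.58 in KD day 16 EBs, against 4.61 to 4.70 in KD ESCs, and their part in the endoderm result was not tested.

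Germline and 2-cell-like genes rose in 7 of 19 cases and fell in 2 (median 0.33, against -1.39 in WT and -1.45 in SCR), beside 19.1% of all genes in each direction. Sycp3, of the synaptonemal complex, read 11.36, 11.16 and 11.42 in KD day 16 EBs, against 9.33, 9.33 and 8.79 in KD ESCs (4.48-fold). Beside the same share, 8 of 17 imprinted genes rose and 6 fell, with Igf2, an insulin-like growth factor, 9.8-fold higher, Grb10, a growth factor receptor adaptor, 7.16-fold higher and Phlda2 3.87-fold lower. The Igf2 level was 10.44 in KD day 16 EBs, 13.79 in WT day 16 EBs and 13.75 in SCR day 16 EBs. Their log2 changes were 2.07 for Igf2 and 1.31 for Grb10 with the mean of probe sets, in place of 3.29 and 2.84. Among 17 STRIPAK genes 7 rose and 1 fell (19.1% of all genes each way), led by the kinase Stk26 (2.32-fold). Of 33 Hox genes 2 rose, Hoxc4 and Hoxd8, fewer than that share, and Hoxb2 fell by 0.82, a call lost without day 16 array 1 or ESC array 3 (adjusted p = 0.11 and 0.054).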

How the data were processed

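The deposited values are log2 signals made by the authors for 45 Affymetrix arrays (45037 probe sets). The submitters' processing notes name Expression Console, Partek 6.6 and RMA, with no role or order given. Gene symbols were unique for 34945 probe sets, multiple for 932 and missing for 9160. Each gene was read from its probe set of highest overall mean, with no filter on level (18193 genes).

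Group means of the 15 groups were fitted with limma 3.58.1 in R 4.3.3 (30 residual degrees of freedom, 5.17 prior). Calls took adjusted p under 0.05 (Benjamini-Hochberg, across the 18193 genes), and SE is limma's. The contrasts were day 16 minus ESCs in each line, and the KD change minus each control change. The alternatives were a replicate block, only the compared arrays, median centring, cyclic loess, leaving out dim genes, every probe set, the mean of probe sets, a trended robust prior, and leaving out each array.

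Named genes were Strip2, the 12 largest rises and falls with non-overlapping groups, members of the 5 endoderm lists, up to 4 called members with the largest change of each other list, defining markers, and the 8 genes whose KD change most exceeded or most fell short of both controls. Members and lists were chosen with earlier results of these data known, so that list counts beside the share of all genes are descriptive.

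Replicate numbers did not pair KD day 16 and KD ESC arrays (correlations of deviations 0.098, -0.221 and -0.132). The number of arrays limits the precision. RNA quality probes were not analysed here. Promoters came from RefSeq (GRCm38.p6; first listed start in list counts). Figures used Python 3.11.15 and matplotlib 3.10.9.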

Additional observations from a re-analysis of the deposited data

Results flagged for a closer look

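These genes were marked because the KD change differed from both control changes by the test of the difference itself, and the values in parentheses are differences from the nearer control on the log2 scale. Of the 8 genes whose KD change most exceeded both controls, Mcf2 (7.06), Dpys (6.8), Sycp3 (6.38) and Lefty2 (5.98) rose in the KD-labelled line and were lower at day 16 in both controls. Fgf4 (6.62), Tdgf1 (5.88, or 5.08 without WT day 16 array 1) and Ooep (6.28) had KD changes of 0.10, -0.28 and 0.75 that did not pass and were lower at day 16 in both controls, and Nr0b1 (6) fell by 0.97 in the KD-labelled line. Fgf4, an ESC growth factor, read 10.49, 10.73 and 10.77 in KD day 16 EBs, against 10.51, 10.46 and 10.72 in KD ESCs, while it averaged 4.16 in WT day 16 EBs. With the mean of probe sets the Dpys differences were 2.87 from WT and 2.66 from SCR, with a KD change of 0.78 in place of 1.86, and those of Fgf4 were 4.49 and 4.46.

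Of the 8 that most fell short, Cym (-8.79), Alb (-8.62), Lum (-8.54), Dcn (-8.37), Sparcl1 (-6.97) and Lyz1 (-6.93) had KD changes of -0.19 to 0.31 that did not pass. Col5a2 (-7.46) fell by 0.94 in the KD-labelled line, and Col3a1 (-7.11) rose there by 2.81, against 10.04 in WT. Cym encodes chymosin, a gastric protease, Lyz1 a lysozyme, and Lum and Dcn proteoglycans of connective tissue. With the mean of probe sets the differences from WT and SCR were -5.67 and -5.50 for Dcn, -5.65 and -4.62 for Lyz1, and -7.86 and -7.73 for Col3a1, and Col5a2 differed from WT by -7.83 in place of -8.65.

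Among members of the endoderm lists, Amn (2.25), Lrp2 (3.15), Lefty1 (4.09) and Otx2 (4.59) rose in the KD-labelled line and were lower at day 16 in both controls. The Lefty1 rise was only 0.60, a call lost without KD ESC array 1 or 2, so that most of its difference lay in the fall of the controls. The Lrp2 differences were 2.15 from WT and 3.64 from SCR with the mean of its probe sets.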

How the results depend on the processing

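With the replicate number as a block, 3494 genes were called higher and 3519 lower at KD day 16, against 3467 and 3472 without it, and the differences of changes gave 4395 and 3969 against WT and 4923 and 3927 against SCR. The pairing changed no count of the endoderm lists. The day 16 and ESC arrays shared only numbers, and not every array correlated best with its own number.

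Of 3938 checks of 266 named results over the settings, 3862 kept their side of the threshold, 45 lost a call, 31 gained one and 0 changed sign with a call. Results without a call could change sign, as the Sox17 difference from SCR did (-0.52, but 0.47 with the mean of its probe sets). With the replicate block and with every probe set tested, the log2 changes of the named results could not move, and all 266 kept their side in each. The 14 results that ever lost a call were those of Elavl3, Ldb3, Myh6 and Tbx20, and of Fgfr4, Hoxb2, Ihh, F2, Fgb, Fgg, Strip2, Hspg2, Lefty1 and Ttr against WT, whose values stand with their results. Elavl3 changed by -0.45 and Ldb3 by 1.19 in the main fit. Elavl3 lost its call without day 16 array 1 or 3 or ESC array 3 (adjusted p = 0.11, 0.079 and 0.31), with only the compared arrays (0.063), cyclic loess (0.067) and probe set means (0.18), and Ldb3 without day 16 array 2 or 3 or ESC array 2 (0.068, 0.054 and 0.13). With only the compared arrays Slc39a4 and Ooep gained a call (adjusted p = 0.0099 and 0.0061), as did Stra6 without ESC array 1 or 2 (0.048 and 0.047), Ooep with cyclic loess, without dim genes and without ESC array 3 (0.043, 0.041 and 0.048), Nkx2-1 with centring (0.042) and Apoa4 with probe set means (0.0064).

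Without dim genes, 698 were at least 2-fold higher at KD day 16; the KD change was below that of WT for 2118 genes (753 at least 2-fold) and below that of SCR for 1980 (702); and called members were 5 higher transcription factors, 2 higher and 1 lower anterior visceral endoderm genes, and 5 higher and 0 lower plasma proteins. KD changes were then below both controls for 2 transcription factors and 4 plasma proteins and above both for 2 anterior visceral endoderm genes. That setting tests fewer genes, and it kept those whose mean over the KD day 16 and KD ESC arrays reached the median of all genes. Genes dim in the KD-labelled line were thus left out whatever their control levels. The drop in counts below the controls is therefore built into the setting. With only the compared arrays, lower members numbered 2 in the uptake list, 1 in the anterior visceral endoderm list and 2 in the plasma list. Centring gave 1 lower transcription factor and 1 lower anterior visceral endoderm gene, testing every probe set gave 2 lower parietal and 1 lower anterior visceral endoderm gene, and probe set means gave 1 lower anterior visceral endoderm gene. The cause of the moves in these other settings was not tested.

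Leaving out each array in turn gave 2995 to 3391 genes higher and 2916 to 3331 lower at KD day 16 (1017 to 1199 and 432 to 470 at least 2-fold), 3871 to 4346 above and 3645 to 3793 below WT (1639 to 1828 and 2048 to 2141), and 4229 to 4822 above and 3583 to 3790 below SCR (1643 to 1784 and 2021 to 2178). The endoderm lists gave 10 to 10 higher and 0 to 1 lower transcription factors, 13 to 13 and 1 to 1 parietal genes, 13 to 15 and 1 to 2 uptake genes, 5 to 7 and 0 to 0 anterior visceral endoderm genes, and 7 to 10 and 1 to 2 plasma proteins.

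Higher calls were 50% of all calls at KD day 16, 45.7% with centring and 56.1% with cyclic loess. With 3 arrays per group, dim signals such as those of Strip2 and Alb in the KD-labelled line leave small changes unresolved. Probe sets of Afp, Apoa1, Apoa4, Ccne1, Cdc20, Dnmt1, Egfl7, Fgf4, Fxyd2, Lyz1, Serpinh1, Socs3, Sox17 and Ttr are of a type that may cross-hybridise.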
